A study of Mus musculus with 6 samples.

Results

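Retinoic acid synthesis, breakdown and response in the testis was followed through 10 genes: Rdh10, Dhrs3, Aldh1a1, Aldh1a2, Lrat, Cyp26a1, Cyp26b1, Rara, Rarg and Stra8. Every probe set whose platform symbol was exactly one of these names was taken, which gave 13 probe sets of the 45037 tested and 10 genes of 18193. Rdh10, Lrat and Rarg had 2 probe sets each and the other 7 genes had 1. The arrays measured total RNA of whole testis from 5-week-old mice, 3 wild type and 3 Phf13 knockout. The question was how testis RNA differs when Phf13, a chromatin protein with a PHD finger, is missing. The labels name neither the strain nor the kind of knockout allele. Nor do they tie the arrays of a genotype to separate animals, so the p-values reflect the scatter of these arrays, some of which may be technical.

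Retinoic acid is made from vitamin A inside the testis. Retinol is oxidised to retinaldehyde, mainly by Rdh10, and retinaldehyde is oxidised to retinoic acid by the Aldh1a enzymes. Lrat stores retinol as esters, and Cyp26 enzymes break retinoic acid down. Retinoic acid binds the receptors of the Rar family, which sit on DNA with Rxr partners. In germ cells it switches on Stra8, which is needed for meiosis to begin.

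Values are log2 levels as deposited, so a difference of 1 is a 2-fold difference. On the 6 arrays the lower quartile of all probe sets lay at 3.66 to 3.75, the median at 5.22 to 5.28 and the upper quartile at 7.22 to 7.35. Probe sets bind with different strength, so levels are placed against these quartiles and not against each other. The Phf13 probe set read 9.55, 9.47 and 9.56 in the wild type and 6.71, 6.60 and 6.55 in the knockout, a difference of -2.91 (SE 0.09, limma adjusted p = 7.7e-06), which matches the labels. The arrays formed 2 sets by their 18S control signal. Wild type 1, wild type 2 and knockout 1 had 12.03 to 12.67, and wild type 3, knockout 2 and knockout 3 had 9.69 to 10.71. Actin 3' minus 5' control signal was 0.75 to 0.89 in the first set and 0.56 to 0.59 in the second. Differences are therefore also given within each set. There 1 genotype has only 1 array, so a difference within a set leans on that array. In whole tissue, fewer cells of a type and less RNA per cell cannot be told apart. Testis markers were present: all 10 pachytene spermatocyte markers, 16 of 16 measured Sertoli markers and 8 of 8 elongating spermatid markers lay above the median on all 6 arrays. The list of 6 measured epididymis markers averaged 3.70 to 4.02 in the wild type and 3.74 to 3.87 in the knockout, and 3 of them were below the lower quartile on all arrays.

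No probe set of the 10 genes passed the test across all probe sets. The count was 0 of 13 at a limma adjusted p under 0.05, a threshold that 0.0999% of all probe sets passed. At an unadjusted p under 0.05 the count was 1 of 13, against 15.1% of all probe sets. That probe set was Aldh1a1, which also was the 1 of 13 whose genotypes did not overlap, against 19.3% of all probe sets. Of the 13, 8 lay above 0 and 5 below. Their median difference was 0.05, where that of all probe sets was 0.00. Apart from Aldh1a1, the largest difference was 0.28, that of Stra8, and 12 of the 13 95% intervals included 0.

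**Figure D1:**
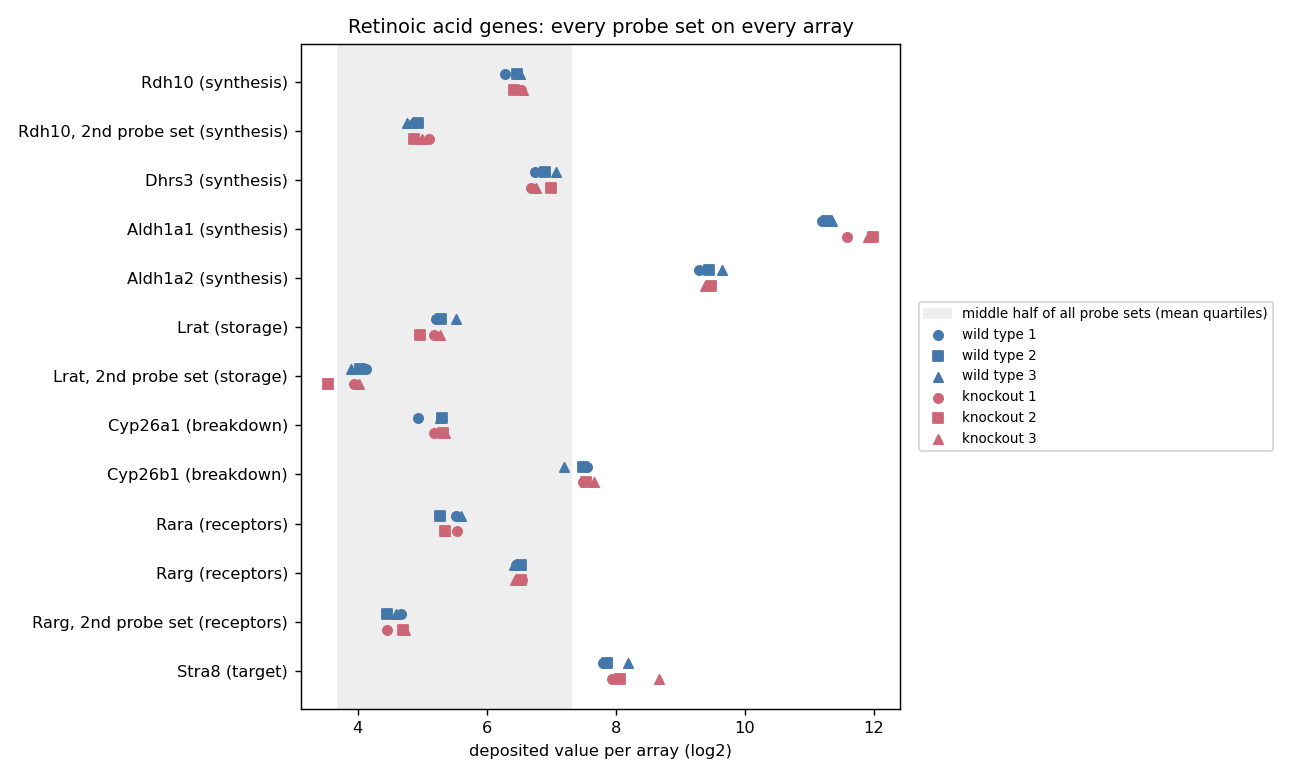
Deposited log2 value of each of the 13 probe sets (rows, with the role of the gene) on each of the 6 arrays, wild type in blue and knockout in red, with 1 marker shape per replicate number. The grey band spans the mean lower to the mean upper quartile of all probe sets. Aldh1a1 is the row whose blue and red markers do not overlap, at 11.20 to 11.36 and 11.59 to 11.99.

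**Figure D2:**
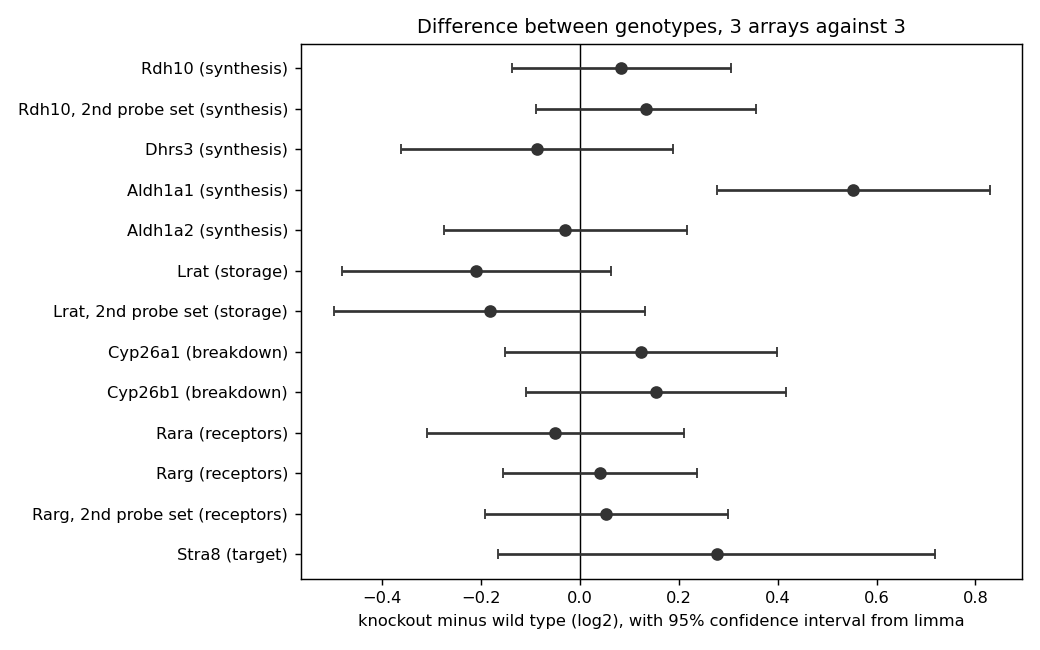
Knockout minus wild type (log2) for each of the 13 probe sets, with its 95% interval from limma and 3 arrays per genotype. The Aldh1a1 interval, 0.28 to 0.83, lies above 0, and the other 12 include 0.

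Of the genes that act on retinol and retinaldehyde, Rdh10 and Dhrs3 showed no difference beyond the spread. Rdh10, the retinol dehydrogenase that supplies most retinaldehyde, read 6.29, 6.47 and 6.52 in the wild type and 6.54, 6.43 and 6.56 in the knockout. Knockout 1 and 3 lay just above the highest wild-type array and knockout 2 within the wild-type range. The difference was 0.08 (SE 0.10, 95% interval -0.14 to 0.30, limma adjusted p = 0.722). It was 0.16 within the first array set and -0.03 within the second, and 0.015 without wild type 1. The second Rdh10 probe set, below the median on all 6 arrays, read 4.87, 4.93 and 4.77 in the wild type and 5.10, 4.87 and 5.00 in the knockout, a difference of 0.13 (95% interval -0.09 to 0.36), or 0.20 and 0.17 within the array sets. Rdh10 is known in Sertoli cells, and relative to the mean of the Sertoli markers of the same array it read -1.94 ± 0.10 in the wild type and -2.23 ± 0.12 in the knockout (SD, n = 3). On that scale all 3 knockout arrays lay below all 3 wild-type arrays. The Sertoli mean itself was 0.37 higher in the knockout, without overlap, so a gene with no difference would also read lower on that scale. The deposited Rdh10 value was 0.08 higher. Whether Rdh10 differs per Sertoli cell was not tested.

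Dhrs3 reduces retinaldehyde back to retinol and so works against Rdh10. It read 6.75, 6.90 and 7.07 in the wild type and 6.69, 7.00 and 6.77 in the knockout. The genotypes overlapped, with a difference of -0.09 (SE 0.12, 95% interval -0.36 to 0.19, limma adjusted p = 0.773). Within the array sets it was -0.14 and -0.19, and without wild type 3 it was -0.0050. Dhrs3 lies on chromosome 4, as Phf13 does, with 82 protein-coding genes of the annotation between them. Of these, 60 were measured and 16 had an unadjusted p under 0.05, or 26.7%. An adjusted p under 0.05, reached by 0.0999% of all probe sets, was found for 1 of the 60 genes. That gene, named after its value was seen, was Camta1, at 6.91 in the wild type and 7.92 in the knockout (limma adjusted p = 0.0169). Over all genes, with 1 probe set each, 17.3% had an unadjusted p under 0.05. The median difference of the 60 was 0.00.

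Aldh1a1, the retinaldehyde dehydrogenase known in Sertoli cells, lay above the upper quartile on all 6 arrays. It read 11.20, 11.28 and 11.36 in the wild type and 11.59, 11.99 and 11.92 in the knockout. Every knockout array lay above every wild-type array, and knockout 1 was the nearest to the wild type. The means were 11.28 ± 0.08 and 11.83 ± 0.21 (SD, n = 3), a difference of 0.55 (SE 0.12, 95% interval 0.28 to 0.83). On the linear scale this was 1.47-fold, with an interval of 1.21 to 1.78. The limma p was 0.00156 and the adjusted p 0.167, so it did not pass the threshold over all probe sets. The difference was 0.35 within the first array set and 0.60 within the second. Without knockout 1 it was 0.68 with an adjusted p of 0.0492. With arrays weighted by their fit, knockout 1 had a weight of 0.383 and knockout 2 one of 2.74. The limma adjusted p of Aldh1a1 was then 0.018, and 7.07% of all probe sets passed 0.05, against 0.0999% in the main fit. Under the other alternatives, of 15 in total, Aldh1a1 did not pass. The highest adjusted p was 0.529, without knockout 3.

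Markers of Sertoli cells also lay higher on the knockout arrays. Of 16 measured Sertoli markers, 15 lay above 0 and 11 had an unadjusted p under 0.05, against 17.3% of all genes. At an adjusted p under 0.05 the count was 0. The median difference of the 16 was 0.42, against 0.01 for all genes. Their mean level was 8.34 to 8.39 on the wild-type arrays and 8.65 to 8.81 on the knockout arrays, and none of the 16 was below the lower quartile on all arrays. Aldh1a1 minus the Sertoli mean was 2.86, 2.91 and 2.97 in the wild type and 2.94, 3.23 and 3.11 in the knockout. On that scale the genotypes overlapped, with a difference of 0.18. Lists of other somatic testis cells also lay higher. Above 0 were 6 of 6 Leydig, 10 of 11 myoid and stromal and 9 of 10 macrophage and leukocyte markers. Their mean differences were 0.28, 0.34 and 0.24, and their list means overlapped between genotypes. Within the first array set these differences were 0.04, 0.01 and -0.12, and within the second 0.35, 0.68 and 0.33. The Sertoli mean differed by 0.29 within the first set and 0.40 within the second. The part of the Sertoli or other markers in the Aldh1a1 result was not tested.

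Aldh1a2, the retinaldehyde dehydrogenase known in spermatocytes and spermatids, read 9.30, 9.45 and 9.65 in the wild type and 9.45, 9.48 and 9.38 in the knockout. All 3 knockout arrays fell inside the wild-type range. The difference was -0.03 (SE 0.11, 95% interval -0.28 to 0.22, limma adjusted p = 0.924), 0.08 within the first array set and -0.22 within the second. Of 10 pachytene markers, 1 lay above 0 and 5 had an unadjusted p under 0.05, against 17.3% of all genes. The median difference of the pachytene markers was -0.23. Of 8 round spermatid markers 5 lay above 0, and of 8 elongating spermatid markers 4 did, with median differences of 0.02 and 0.003. Aldh1a2 minus the pachytene mean was -1.57 ± 0.16 in the wild type and -1.42 ± 0.02 in the knockout (SD, n = 3), and the genotypes overlapped.

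The 2 Aldh1a genes of the pathway can be set against each other within an array, a comparison chosen after their values were seen. Aldh1a1 minus Aldh1a2 was 1.90, 1.83 and 1.71 in the wild type and 2.14, 2.51 and 2.54 in the knockout. The genotypes did not overlap, with means of 1.81 ± 0.10 and 2.40 ± 0.22 (SD, n = 3) and a difference of 0.58. Against Cyp26b1, the other gene tried, Aldh1a1 was 3.65 to 4.16 higher in the wild type and 4.10 to 4.45 higher in the knockout, with overlap. The first comparison restates the Aldh1a1 difference of 0.55 and the Aldh1a2 difference of -0.03, and is no separate evidence. Aldh1a7, a close copy of Aldh1a1 that could share signal with it, differed by 0.33 (SE 0.16, limma adjusted p = 0.376) from 8.13 to 8.46, and its genotypes overlapped.

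**Figure D3:**
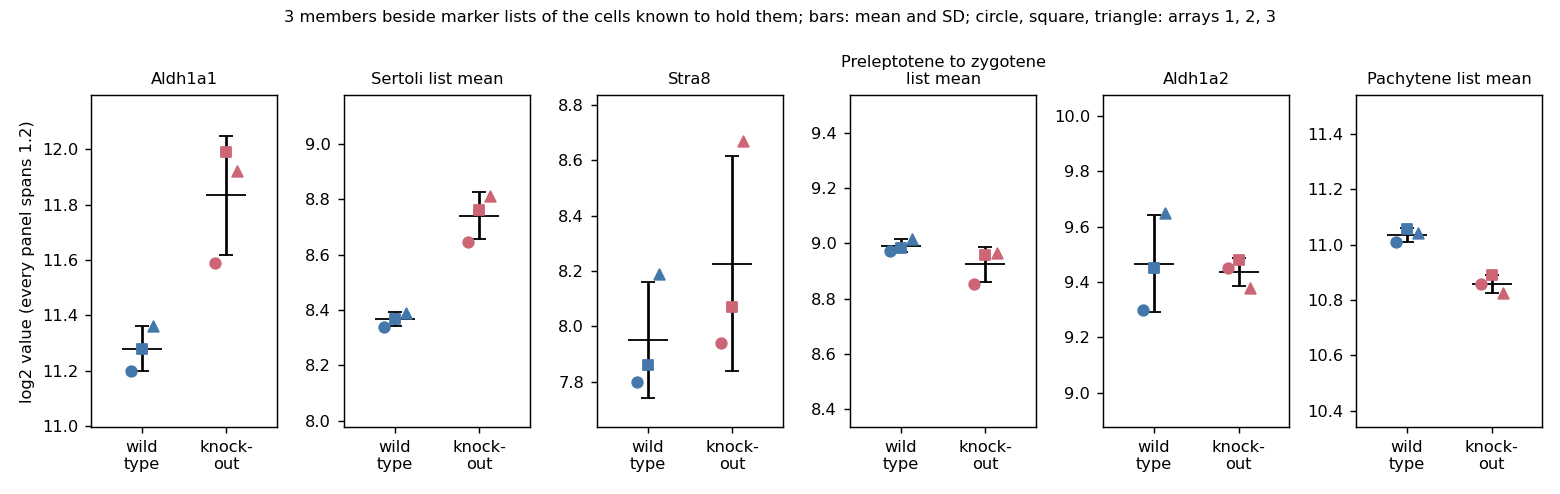
Log2 values per array of members of the pathway beside the mean level of marker lists of the cells they are known from, wild type in blue and knockout in red, with the mean and SD of 3 arrays as black bars and every panel spanning the same log2 range. Aldh1a1 and the Sertoli mean are both higher on every knockout array than on any wild-type array, the pachytene mean is lower on every knockout array, and Aldh1a2 and Stra8 overlap between genotypes.

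Storage was read from Lrat, the enzyme that joins retinol to a fatty acid. Its brighter probe set read 5.22, 5.30 and 5.52 in the wild type and 5.18, 4.96 and 5.27 in the knockout. Knockout 1 and 2 lay below the wild type and knockout 3 within it, with a difference of -0.21 (SE 0.12, 95% interval -0.48 to 0.06, limma adjusted p = 0.44). The second probe set read 4.13, 4.03 and 3.90 in the wild type and 3.95, 3.54 and 4.02 in the knockout, a difference of -0.18 (95% interval -0.50 to 0.13). It was dim, and on knockout 2 it lay below the lower quartile. Both probe sets had the same sign, and neither passed the test. Without knockout 2 the differences were -0.12 and -0.035, and without wild type 3 that of the brighter one was -0.12. Within the array sets the brighter one differed by -0.08 and -0.41 and the second by -0.13 and -0.12.

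Breakdown was read from Cyp26a1 and Cyp26b1, the cytochrome P450 enzymes that hydroxylate retinoic acid. Cyp26a1 is a textbook direct target of the retinoic acid receptors, which bind pairs of a short half-site in the same orientation. The promoters of RefSeq (assembly GRCm38.p6), each a window of 300 bases with 250 before the start of the gene, were searched for such direct repeats. The half-site was the consensus AGGTCA or one of its variants, namely AGTTCA, or else GGTTCA, or else GGGTCA, with a spacer of 1, 2 or 5 bases, on both strands. Promoters were listed for 9 of the 10 genes, all but Rdh10, and 1 of their 16 promoters held a direct repeat, that of Cyp26a1. Among all 32851 promoters 0.588% held one, and 0.0974% held one with a spacer of 5. The 250 bases before the Cyp26a1 start are shown since they carry this repeat, at chr19:37697558-37697807 on the plus strand, with the repeat in capitals.
Cyp26a1: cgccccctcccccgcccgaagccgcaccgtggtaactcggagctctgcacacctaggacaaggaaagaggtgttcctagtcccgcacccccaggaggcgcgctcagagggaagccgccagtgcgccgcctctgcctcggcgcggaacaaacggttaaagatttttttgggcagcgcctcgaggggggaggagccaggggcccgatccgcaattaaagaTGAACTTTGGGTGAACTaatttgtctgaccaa

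The repeat lies 32 to 16 bases before the start and reads on the minus strand. Rarb, the receptor gene best known for a site of this kind, held a repeat with the same spacer of 5, on the plus strand, 53 to 37 bases before its start. Both are written as read on their own strand, with the half-sites and spacer in capitals.
Cyp26a1 repeat: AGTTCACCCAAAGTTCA
Rarb repeat: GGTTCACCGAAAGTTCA

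The repeats were identical at 15 of 17 bases. A match is a description of the letters and no evidence of binding in these samples.

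Neither gene with a repeat of this kind differed beyond its spread. Cyp26a1 read 4.93, 5.31 and 5.27 in the wild type and 5.19, 5.33 and 5.36 in the knockout. Wild type 1 was the lowest, the genotypes overlapped, and the difference was 0.12 (SE 0.12, 95% interval -0.15 to 0.40, limma adjusted p = 0.664). Without wild type 1 it was 0.0033, and within the array sets 0.07 and 0.08. Rarb was dim, at 3.65 ± 0.15 in the wild type and 3.52 ± 0.22 in the knockout (SD, n = 3), a difference of -0.13 (limma adjusted p = 0.685). Rarb was named for its repeat.

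Cyp26b1, known in the peritubular myoid cells and Sertoli cells of the testis, lay near the upper quartile. It read 7.55, 7.49 and 7.20 in the wild type and 7.49, 7.54 and 7.67 in the knockout. Wild type 3 was the lowest, the genotypes overlapped, and the difference was 0.15 (SE 0.11, 95% interval -0.11 to 0.42, limma adjusted p = 0.56). Without wild type 3 it was 0.047. Within the first array set the difference was -0.03 and within the second 0.41. The markers of myoid and stromal cells had a difference of their mean of 0.01 in the first set and 0.68 in the second. Of 11 such markers 10 lay above 0 and 4 had an unadjusted p under 0.05, against 17.3% of all genes. Their level was 7.34 to 7.72 in the wild type and 7.69 to 8.06 in the knockout, and their part in the Cyp26b1 values was not tested. Cyp26b1 minus their mean was -0.15 ± 0.07 in the wild type and -0.34 ± 0.12 in the knockout (SD, n = 3), with overlap.

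The receptors differed little. Rara, the receptor known in Sertoli cells, read 5.53, 5.27 and 5.60 in the wild type and 5.54, 5.35 and 5.36 in the knockout. The knockout arrays fell inside the wild-type range, with a difference of -0.05 (SE 0.11, 95% interval -0.31 to 0.21, limma adjusted p = 0.87). It was 0.14 within the first array set and -0.25 within the second, which differ in sign. Rarg, the receptor known in spermatogonia, read 6.46, 6.53 and 6.42 in the wild type and 6.55, 6.54 and 6.44 in the knockout. Its difference was 0.04 (SE 0.09, 95% interval -0.16 to 0.24, limma adjusted p = 0.862), and 0.06 and 0.07 within the array sets. The second Rarg probe set read 4.67, 4.46 and 4.60 in the wild type and 4.46, 4.70 and 4.73 in the knockout, a difference of 0.05 (95% interval -0.19 to 0.30), with -0.11 within the first array set and 0.12 within the second. The intervals of all 3 receptor probe sets lay between -0.31 and 0.30.

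Stra8, the germ cell target, lay above the upper quartile on all 6 arrays. The 250 bases before its start are shown because Stra8 is the response gene of the pathway, at chr6:34920698-34920947 on the plus strand, with half-sites in capitals.
Stra8: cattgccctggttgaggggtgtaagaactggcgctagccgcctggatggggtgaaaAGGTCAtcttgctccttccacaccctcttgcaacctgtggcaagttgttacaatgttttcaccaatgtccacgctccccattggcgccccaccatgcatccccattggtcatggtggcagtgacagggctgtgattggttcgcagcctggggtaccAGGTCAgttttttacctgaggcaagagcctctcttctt

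The window held 2 half-sites AGGTCA, 194 to 189 and 38 to 33 bases before the start, and no direct repeat with the spacers searched. At least 2 of the 4 half-sites stood in 13.1% of all promoters, and at least 1 in 43.7%.

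Stra8 read 7.80, 7.86 and 8.19 in the wild type and 7.94, 8.07 and 8.67 in the knockout. Knockout 3 was the highest, and the other 2 knockout arrays lay within the wild-type range. The means were 7.95 ± 0.21 and 8.23 ± 0.39 (SD, n = 3), a difference of 0.28 (SE 0.19, 95% interval -0.17 to 0.72, limma adjusted p = 0.532). Without knockout 3 the difference was 0.055 (limma adjusted p = 0.91), so that array decided its size, and without knockout 1 it was 0.42. Within the array sets it was 0.11 and 0.18.

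Germ cells of the stages around Stra8 were followed through their own markers. Differentiating spermatogonia markers averaged 7.43 to 7.57 in the wild type and 7.45 to 7.84 in the knockout. Of these 8, 6 lay above 0 and 2 had an unadjusted p under 0.05, which 17.3% of all genes reached. Preleptotene to zygotene markers averaged 8.97 to 9.02 and 8.85 to 8.97, with 4 of 10 above 0 and 3 at an unadjusted p under 0.05. Their knockout means lay just below the wild-type means, without overlap. Stra8 minus the first mean was 0.45 ± 0.15 in the wild type and 0.57 ± 0.23 in the knockout, and minus the second -1.04 ± 0.19 and -0.70 ± 0.35 (SD, n = 3). Both overlapped between genotypes.

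The rest of the retinoid pathway was followed in a list of 66 further genes, of which 57 were measured, with 1 probe set per gene. At an adjusted p under 0.05 the count was 0. An unadjusted p under 0.05 was reached by 13 of 57, or 22.8%, of which 8 lay higher in the knockout and 5 lower. Among all genes 8.58% lay higher and 8.72% lower at that p. The median difference of the 57 was 0.02, with 31 above 0 and 25 below.

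**Figure D4:**
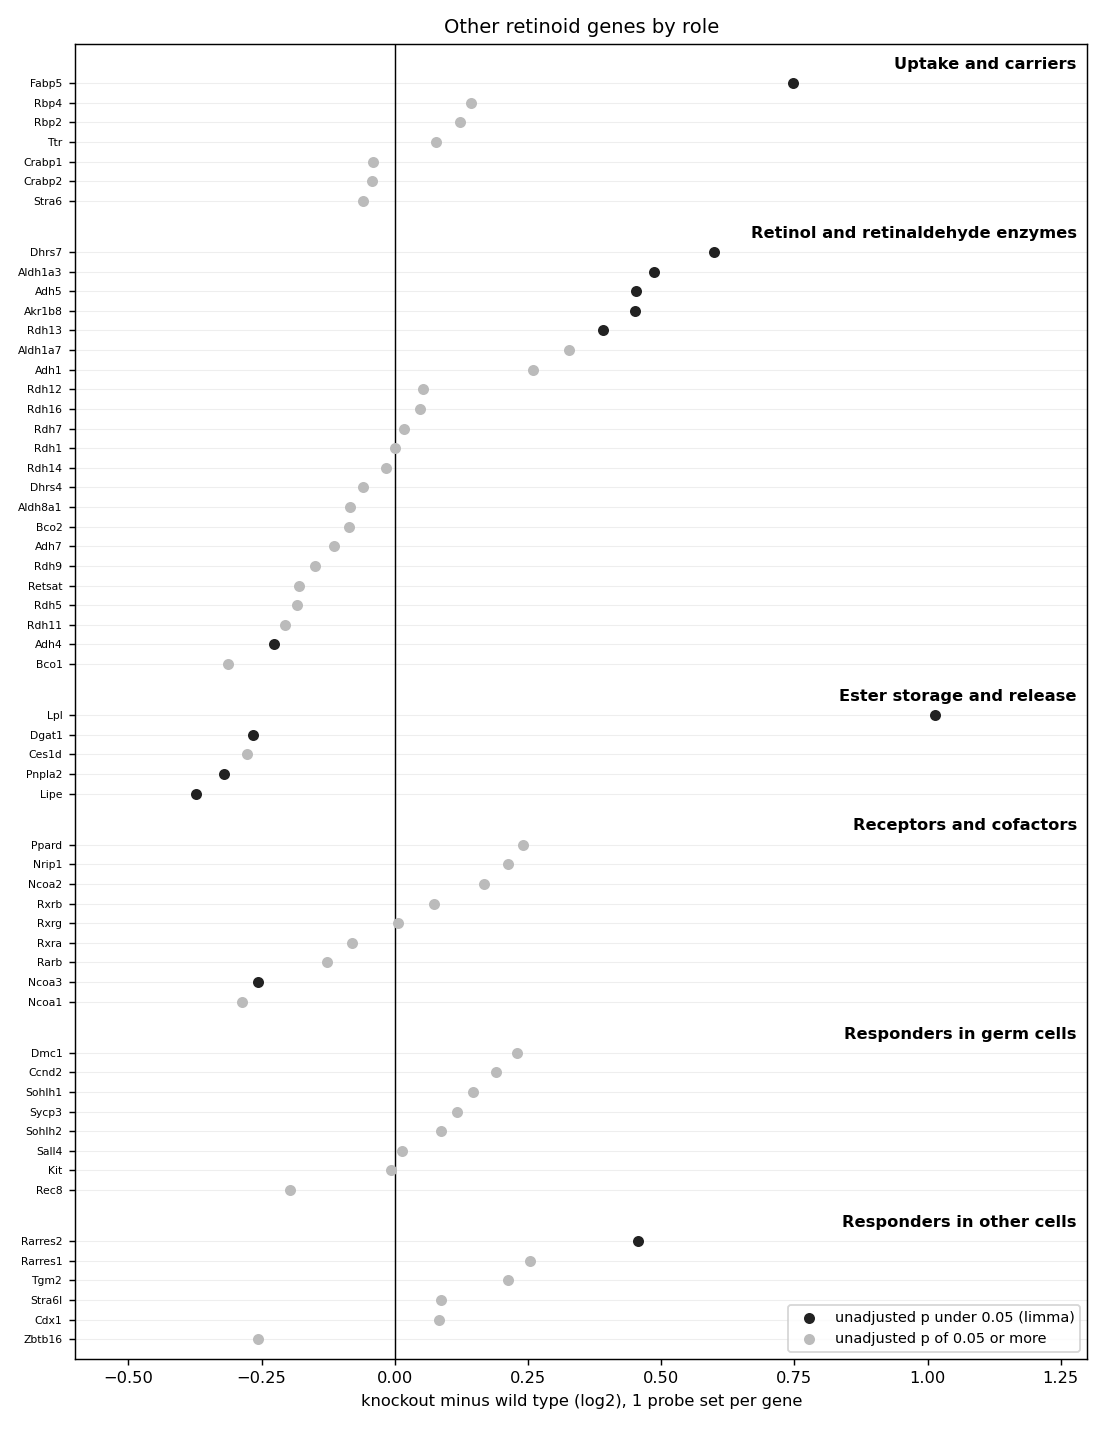
Knockout minus wild type (log2) of 57 other retinoid genes, 1 probe set per gene, ordered by role. Dark points have an unadjusted limma p under 0.05 (13 genes) and grey points do not. Lpl at 1.01 and Fabp5 at 0.75 lie farthest to the right, and Lipe at -0.37 farthest to the left.

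Among 7 measured genes of uptake and carriage, 1 had an unadjusted p under 0.05 at its brightest probe set, against 17.3% of all genes. This was Fabp5, a fatty acid binding protein that can also carry retinoic acid, at 8.55 ± 0.09 in the wild type and 9.29 ± 0.19 in the knockout (SD, n = 3). The genotypes did not overlap, and the difference of 0.75 (SE 0.12) had a limma adjusted p of 0.0844. A second Fabp5 probe set differed by 0.61. Rbp4, the carrier of retinol in blood, differed by 0.14, Crabp1, which binds retinoic acid inside cells, by -0.04, and Ttr, the partner of Rbp4 in blood, by 0.08.

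The 22 measured enzymes of retinol and retinaldehyde had a median difference of -0.01. Of these, 6 had an unadjusted p under 0.05, against 17.3% of all genes. Higher were Dhrs7 by 0.60, Aldh1a3 by 0.49, Adh5 by 0.45, Akr1b8 by 0.45 and Rdh13 by 0.39, with limma adjusted p-values of 0.211 to 0.267. Aldh1a3 is the third enzyme of the Aldh1a family that makes retinoic acid, but its other 2 probe sets differed by -0.01 and 0.21. Adh4, an alcohol dehydrogenase that oxidises retinol, differed by -0.23 (limma adjusted p = 0.318). Named for their high level were Rdh11 with a difference of -0.21, Bco1, which cleaves carotene to retinaldehyde, with -0.31, and Dhrs4 with -0.06.

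Ester storage and release held 5 measured genes, of which 4 had an unadjusted p under 0.05, against 17.3% of all genes. Higher was Lpl, lipoprotein lipase, at 6.26 ± 0.16 in the wild type and 7.28 ± 0.66 in the knockout (SD, n = 3), a difference of 1.01 (SE 0.28, limma adjusted p = 0.214). It differed by 0.34 within the first array set and 1.22 within the second. The second, dimmer Lpl probe set differed by 0.67 (limma adjusted p = 0.154), without overlap, and by 0.45 and 0.755 within the array sets. Lower were the lipase Lipe by -0.37, the lipase Pnpla2 by -0.32 and the acyltransferase Dgat1 by -0.27, with limma adjusted p-values of 0.243 to 0.266. The second Lipe probe set differed by 0.05, the second Pnpla2 probe set by -0.02 and the second Dgat1 probe set by -0.25. Ces1d differed by -0.28. Adipose markers, which include genes of lipid handling, averaged 5.47 to 6.13 in the wild type and 6.40 to 6.71 in the knockout, with 4 of 4 above 0. Fabp4 among them differed by 2.21, and the part of fat tissue in the Lpl values was not tested.

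By brightest probe set, 1 of 9 measured receptors and cofactors had an unadjusted p under 0.05, against 17.3% of all genes. This was Ncoa3, a coactivator of nuclear receptors, which differed by -0.26 (limma adjusted p = 0.27). The retinoid X receptors Rxra and Rxrb, partners of Rara and Rarg, differed by -0.08 and 0.07. The coactivator Ncoa2 differed by 0.17 at its brightest probe set. At 3 dimmer ones it differed by -0.32, -0.28 and -0.31 (limma unadjusted p = 0.0463, 0.052 and 0.0448), so its probe sets disagreed in sign.

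At their brightest probe sets, 0 of 8 measured genes that respond to retinoic acid in germ cells had an unadjusted p under 0.05. The meiotic chromosome genes Sycp3, Rec8 and Dmc1 differed by 0.12, -0.20 and 0.23, with overlap between genotypes. Ccnd2 differed by 0.19 at its brightest probe set. Dimmer ones differed by 0.33 (limma unadjusted p = 0.0204, adjusted p = 0.262) and 0.31 (limma unadjusted p = 0.0411, adjusted p = 0.31). Its other probe sets differed by 0.28, 0.04, -0.10 and -0.02. Of 6 measured responders in other cells, 1 had an unadjusted p under 0.05 at its brightest probe set, against 17.3% of all genes. This was Rarres2, which encodes the signal protein chemerin, at 6.50 in the wild type and 6.96 in the knockout, a difference of 0.46 (SE 0.16, limma adjusted p = 0.263). Its difference was 0.06 within the first array set and 0.64 within the second. Tgm2 and Rarres1 differed by 0.21 and 0.25.

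The genes whose values over the 6 arrays ran most like those of a member were found by Pearson's r, with no test, among 5651 or 5652 genes above the median level whose range was at least that of the median probe set. For Aldh1a1 these were Vcl (r = 0.997, difference 0.36), F11r (0.995, difference 0.67) and 4933402E13Rik (0.993, difference 0.55). For Aldh1a2 they were Ap3b2 (0.966), Myef2 (0.958) and C2cd6 (0.956), whose differences lay between -0.06 and 0.01. For Stra8 they were Pex5l (0.993), Snhg4 (0.978) and Ehd4 (0.974), with differences of 0.12, 0.37 and 0.20. The 6 points share genotype and array set, so these values are a description.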

How the data were processed

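Total RNA of whole testis was measured on 6 Affymetrix arrays, 3 per genotype. The deposited values are on a log2 scale, as their range shows. Per the submitters' processing notes, the software was Affymetrix Expression Console 1.4.1. How it summarized and normalized the probes is not given in the sources used. Without the 64 controls, 45037 probe sets entered the fit, unfiltered. The platform annotation gave 1 symbol to 34945 of them, several to 932 and none to 9160, and only the first kind was named. All were fitted on genotype with lmFit and eBayes (limma 3.58.1, R 4.3.3), two-sided, with Benjamini-Hochberg adjustment over all probe sets and a threshold of 0.05. All adjusted p-values are from this fit unless another setting is named. The brightest probe set stood for a gene where 1 was needed.

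The members and lists were chosen with earlier results of these data known. Named were all members, Phf13, Aldh1a7, and in each role of the longer list the genes with an unadjusted p under 0.05 and at most 3 more of the highest level, together with the 3 genes most like Aldh1a1, Aldh1a2 and Stra8. Rarb was added for its promoter and Ccnd2 for its dimmer probe sets. Promoter sequences came from RefSeq (GRCm38.p6). A planned comparison of protein sequences was not made. Precision is limited by having 3 arrays per genotype. The fit was checked on simulated data. Alternatives were blocks for replicate number, array set and runs of codes in the sample titles, other normalizations, a filter on dim probe sets, other moderation, array weights, gene means and leaving out each array.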

Additional observations from a re-analysis of the deposited data

How the results depend on the processing

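Each probe set of the 10 genes was refitted under up to 15 alternatives. Aldh1a1 stayed above 0 in all 15, at 0.47 to 0.68, with limma adjusted p-values of 0.018 to 0.529. The count of the 13 probe sets at an adjusted p under 0.05 was 1, Aldh1a1, with array weights, where 3186 of all probe sets passed, and 0 to 1 when 1 array was left out. The 1 was without knockout 1, where 166 of all probe sets passed, against 45 with all arrays. At an unadjusted p under 0.05 the count was 3 with array weights, Aldh1a1 and both Lrat probe sets, where 26.3% of all probe sets passed, and 2 with the replicate number as a block, Aldh1a1 and Stra8, where 18.1% did. With that replicate block Aldh1a1 was at 0.55 (limma adjusted p = 0.11), the count at an adjusted p under 0.05 was 0 of 13, and 28 of all probe sets passed. Same-numbered arrays correlated in their deviations at 0.066 to 0.258 and other pairs at -0.199 to 0.128. Of the 6 arrays, 4 correlated best with their own number. These values do not settle whether the numbers pair the samples. The labels state no pairing, and the main fit used none. Small differences turned sign: Dhrs3 was 0.010 with array weights, Aldh1a2 was 0.015 after quantile normalization, and Cyp26a1 was -0.0086 with runs of title codes as a block. Leaving out 1 array gave -0.11 to 0.062 for Aldh1a2, -0.15 to 0.017 for Rara and -0.0050 to 0.14 for the second Rarg probe set. The cause was not tested. The filter on dim probe sets left 8 of the 13 to test. With 3 arrays per genotype the SE of a member was about 0.11 (median), and the dimmer probe sets of Rdh10, Lrat and Rarg lay below the array median on all 6 arrays.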
